A study of Mus musculus with 8 samples.

Results

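Valproic acid (VPA) is an inhibitor of histone deacetylases, the enzymes that take acetyl groups off histones and so favour closed chromatin. CHIR99021 inhibits the kinase GSK3 and thereby raises Wnt signalling, which keeps intestinal stem cells dividing. Mouse small intestinal organoids are cultures grown from crypts in Matrigel, and they hold the epithelium without the surrounding stroma. A probe whose signal no array picks up without VPA and every array picks up with it has crossed the limit of detection. The set described here holds the genes with a probe of that kind.

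The genes were chosen from detection flags of the scanner software. A probe qualified if its Cy5 signal was well above background on both CHIR99021+VPA arrays and both VPA arrays, and on neither of the CHIR99021 arrays and neither of the control arrays, with no outlier flag on any array. Of 18749 genes with a RefSeq-matched symbol on the array, 92 had such a probe, or 0.491%. Each gene is represented by 1 probe. The choice therefore used measured values, and every difference between arrays with and without VPA is given below as a description, with no test.

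The arrays compared wild-type organoids of 2 independently established lines in 4 conditions, 1 array for each line and condition. The conditions were 3 µM CHIR99021 with 1 mM VPA, 1 mM VPA, 3 µM CHIR99021, and control medium, each for 6 days from seeding. On every array Cy5 labelled the RNA of the sample and Cy3 that of untreated organoids from the matching line. The dyes were never swapped, and the log2 Cy5/Cy3 ratio sets a sample against untreated organoids. Control arrays thus carried control RNA in both dyes. The mouse strain and the age of the donors are not given in the sources used here. In bulk RNA, fewer cells of a type and less RNA per cell cannot be told apart.

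Depth was similar on the 8 arrays. Cy5 was well above background on 59.4 to 63.2% of 45018 spots per array and Cy3 on 52.3 to 56.5%, with 0 saturated spots. All 10 of the 10 intestinal epithelium markers were well above background on both arrays of each of the 4 conditions. Their summed normalised Cy5 was lower with VPA, at 387400 and 351100 with the combination, 410500 and 358500 with VPA, 435600 and 413400 with CHIR99021, and 492400 and 467700 in control, and their median VPA minus control was -0.35 on the log2 scale. Whether a change in the makeup of the epithelium had a part in the members' values was not tested.

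The pattern ran mostly in 1 direction. Among 16661 genes with a symbol and a spot free of outlier flags, 92 were detected in the combination and VPA only, against 14 in CHIR99021 and control only. A further 5 genes were detected in the combination alone, 20 in VPA alone, 6 in CHIR99021 alone and 41 in control alone. In VPA and control only, the conditions without CHIR99021, 18 genes were detected. No gene (0) was detected in the 2 conditions with CHIR99021 and in neither of the others. For most genes the flags did not depend on the condition: 11107 genes had a spot detected in all 4 conditions and 3766 a spot detected in none. The lines disagreed in at least 1 condition for a spot of 3273 genes.

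Detection of a probe is not detection of the gene. For 27 of the 92 genes another probe of the same gene was well above background on at least 1 of the 4 arrays without VPA, and for 16 genes on both control arrays. For those 27 genes a signal was measured without VPA by another probe than the one that showed the pattern. The other 65 genes had no probe above background on any array without VPA, and 47 of them had no other probe on the array. Of the 58 other probes of members, 17 were above background on no array, so they did not detect the gene with VPA either. Megf6, Ppm1e and Msx3 each had such a probe. A second probe met the full rule for 3 genes, Fam81a, Rbm11 and Ppp4r4.

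The members were faint spots that became brighter. Net Cy5 brightness, the median pixel value of the spot minus that of its local background, had a median of 74.5 over the members on CHIR99021+VPA arrays and 61.0 on VPA arrays. On CHIR99021 arrays the median was 21.8 and on control arrays 22.0, where the spots were not well above background. The lowest member value with VPA was 26.0 and the highest without VPA was 42.5. Detected and undetected spots thus overlapped in net brightness, since the software's limit is set spot by spot. The Cy3 channel, which held control RNA throughout, had a median of 20.0 on these spots.

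**Figure D1:**
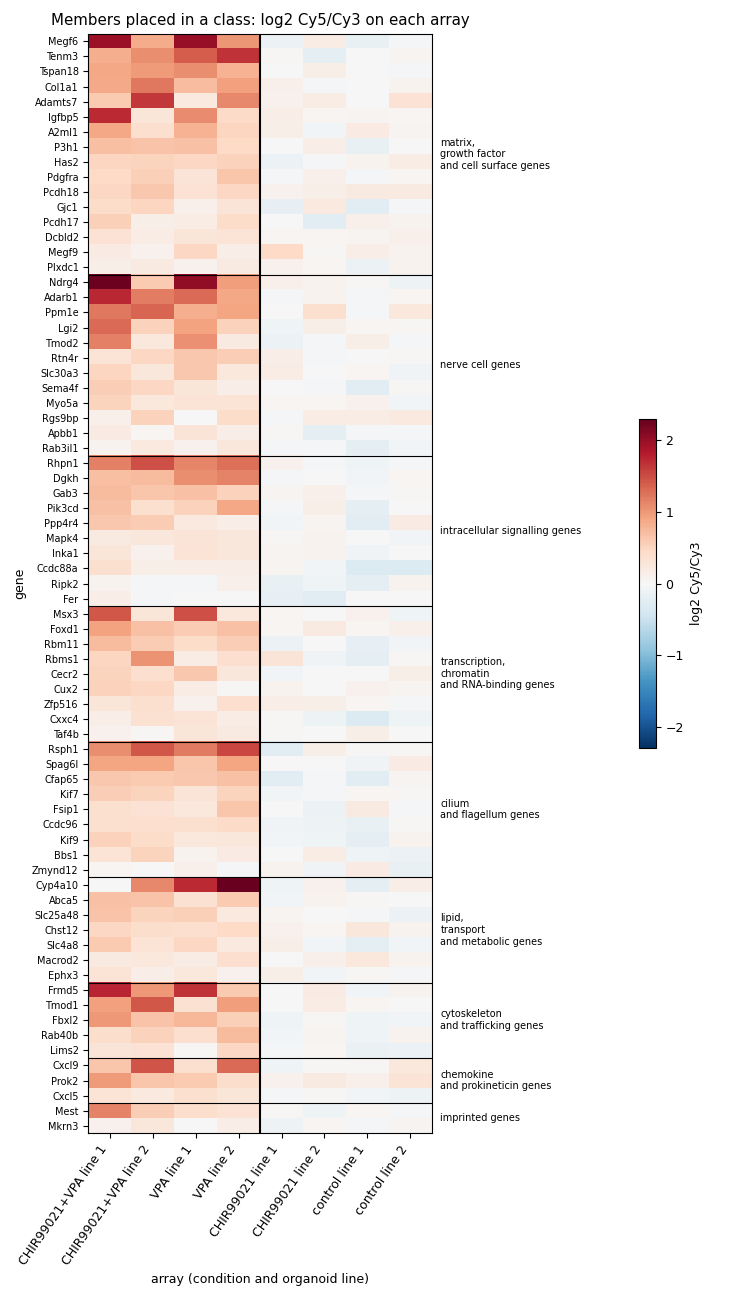
Log2 Cy5/Cy3 of the 73 members that were placed in a functional class, 1 row per gene and 1 column per array, with classes separated by horizontal lines. The 4 columns left of the thick line are the arrays with VPA and are mostly red; all 4 columns on the right stay between -1 and 1 for every gene.

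Ratios on the log2 scale were small for most members. The median over the 92 genes was 0.50 with CHIR99021+VPA and 0.42 with VPA, against 0.02 with CHIR99021 and -0.01 in control (means of the 2 lines). Averaged over the 4 arrays with VPA, 10 genes lay between 1 and 2, 82 lay below 1 and 0 lay above 2. The ratio was above 0 on all 4 arrays with VPA for 86 genes. The lowest of the 4 ratios with VPA exceeded the highest of the 4 without it for 68 genes (73.9%), against 13.4% of the 25621 probes tested. For Cy5 alone the count was 83 genes (90.2%), against 11.0% of probes. Both counts follow from the choice of the members and carry no test.

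How the ratio was made decided its size. An offset of 50 brightness units was added to both dyes before the ratio was taken, which draws the ratios of faint spots towards 0. With an offset of 16 the medians were 0.84 for CHIR99021+VPA and 0.74 for VPA. The scanner software's own ratio, which uses no such offset, gave medians of 2.38 and 2.41 in the same order, against 0.08 for CHIR99021 and 0 for control, and 57 of the 92 genes had a mean above 2 with VPA. The software returned a ratio of exactly 0 for 96 of the 368 pairs of a member and an array without VPA, and for 0 of 368 pairs with VPA. For 84 of the 92 members Cy3 was not well above background on any array. The size of the software's ratios therefore rests on faint signals in that dye. Because the spots without VPA give only a bound, folds are given below as lower limits from the normalised Cy5 channel, which are open to dye bias without a swap. That channel holds the offset of 50, which draws these folds towards 1 as well. The side without VPA entered as its own signal or as the lowest detected signal of the array, whichever was higher. Where its own signal was the higher, the value is a plain ratio of measured signals and not a strict bound. The lower limit for CHIR99021+VPA over CHIR99021 had a median of 1.48-fold (1.03 to 4.09), and for VPA over control 1.41-fold (1.09 to 5.47).

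**Figure D2:**
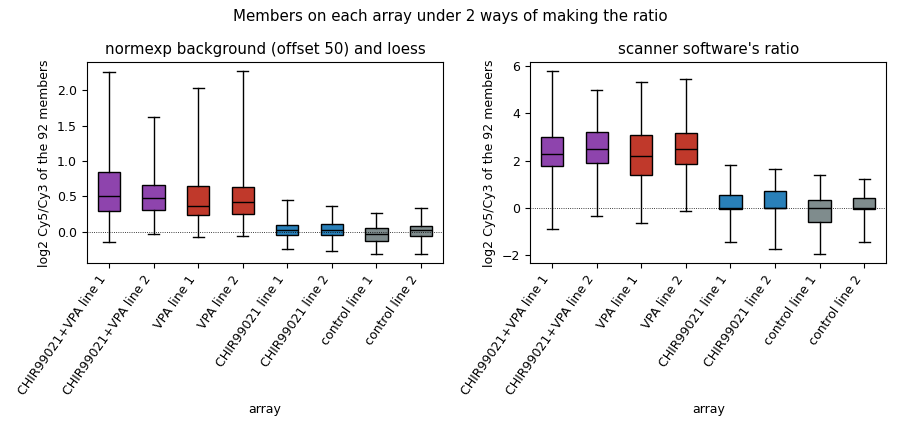
Log2 Cy5/Cy3 of the 92 members on each of the 8 arrays, from the offset and loess processing on the left and from the scanner software on the right; boxes span the quartiles, the line is the median and whiskers reach the lowest and highest member. The medians with VPA lie between 0.37 and 0.51 on the left and above 2 on the right, and near 0 on the arrays without VPA in both panels.

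Cyp4a10, a fatty acid omega-hydroxylase known in mouse liver as a target of the lipid-sensing receptor PPARα, had the highest ratio with VPA alone. Its log2 ratio was -0.00 in line 1 and 1.11 in line 2 with CHIR99021+VPA, 1.71 and 2.27 with VPA, -0.10 and 0.10 with CHIR99021, and -0.23 and 0.15 in control. Net Cy5 brightness was 80.0 and 171 with the combination, 356 and 544 with VPA, 17.0 and 14.0 with CHIR99021, and 10.5 and 19.5 in control. All 4 arrays with VPA were brighter than the rest, but the ratio in line 1 with the combination overlapped those without VPA. On that array the Cy3 spot was at 40.0, against 14.0 to 26.0 on the other 7. The lower limit was 1.98-fold for the combination over CHIR99021 and 5.47-fold for VPA over control. Both other Cyp4a10 probes were detected without VPA and read a larger change, with VPA minus control at 3.24 and 4.90 on the log2 scale.

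Fam81a, a gene not placed in a class here, had log2 ratios of 1.12 and 1.03 with the combination, 1.81 and 2.10 with VPA, 0.05 and -0.04 with CHIR99021, and 0.07 and -0.10 in control. Net brightness was 160 and 188 with the combination, 314 and 420 with VPA, 16.5 and 18.5 with CHIR99021, and 18.0 and 25.5 in control. The groups with and without VPA did not overlap, and both VPA arrays lay above both combination arrays. Its limits were 2.47-fold for the combination over CHIR99021 and 4.56-fold for VPA over control. The second Fam81a probe that met the rule averaged 0.46 with the combination, 0.69 with VPA, -0.08 with CHIR99021 and -0.08 in control.

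Members of the matrix, growth factor and cell surface class numbered 16, with median log2 ratios of 0.59 for CHIR99021+VPA and 0.54 for VPA. Megf6, a secreted protein of repeated EGF-like domains, had 1.96 and 0.85 with the combination, 2.00 and 1.02 with VPA, -0.14 and 0.18 with CHIR99021, and -0.18 and -0.05 in control. Its Cy3 spot was well above background on 2 arrays, and its net Cy5 brightness reached 742 in line 1 with the combination. Tenm3, a teneurin that guides the matching of nerve cell partners, had 0.83 and 1.07 with the combination, 1.39 and 1.66 with VPA, 0.03 and -0.22 with CHIR99021, and 0.00 and 0.06 in control. Both genes were higher on every array with VPA than on any array without it. Another Tenm3 probe was detected on all 8 arrays and averaged 1.97 with the combination and 1.96 with VPA, against 0.25 with CHIR99021 and 0.08 in control.

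Several members of this class build or modify the matrix that stromal cells make. Col1a1, the main chain of type I collagen, had 0.87 and 1.21 with the combination, 0.71 and 0.94 with VPA, 0.11 and -0.02 with CHIR99021, and -0.02 and 0.09 in control. It was read from a probe of 10 spots, not all of which met the rule, and its other probes on the array were above background nowhere. P3h1, which hydroxylates collagen prolines, averaged 0.68 ± 0.02 with the combination and 0.57 ± 0.16 with VPA (SD, n = 2 lines each). Has2, which makes hyaluronan, lay between 0.48 and 0.54 on the 4 arrays with VPA. Adamts7, a metalloprotease of the matrix, had 0.59 and 1.62 with the combination and 0.23 and 1.10 with VPA, and another of its probes was detected on all 8 arrays.

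Receptors, binding proteins and adhesion genes made up most of the rest of the class. Igfbp5, which binds insulin-like growth factors, had 1.71 and 0.28 with the combination and 1.09 and 0.44 with VPA, against at most 0.14 on the arrays without VPA. A second Igfbp5 probe, detected on 2 arrays with VPA and on 2 without, averaged 0.14 with the combination, 0.00 with VPA, 0.12 with CHIR99021 and 0.03 in control, so the probes disagreed. Pdgfra, the receptor for platelet-derived growth factor on mesenchymal cells, had 0.46 and 0.55 with the combination, 0.30 and 0.64 with VPA, -0.02 and 0.12 with CHIR99021, and -0.02 and 0.05 in control. Its probe has 10 spots, of which 2 met the rule. A majority of the 10 spots was above background on 1 of the 2 VPA arrays, and another Pdgfra probe was above background on no array. The protocadherins Pcdh18 and Pcdh17 averaged 0.55 and 0.34 with the combination and 0.41 and 0.30 with VPA. Tspan18, a tetraspanin, lay between 0.79 and 1.07 on the 4 arrays with VPA.

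Col1a1 and Pdgfra are fibroblast markers, so the values of that list are set beside them. Of the 8 fibroblast markers on the array, 2 (Col1a1 and Pdgfra) were members and 2 (Dcn and Lum) were not well above background on any of the 8 arrays. The summed normalised Cy5 of the list was 2753 and 4957 with the combination, 1274 and 2167 with VPA, 1006 and 682.5 with CHIR99021, and 1319 and 770.3 in control, with lines 1 and 2 in that order. In line 1 the sum was no higher with VPA alone than in control, and the median VPA minus control of the list was 0.07 on the log2 scale. Vim, an intermediate filament gene of mesenchymal cells that was detected in all 4 conditions, had log2 ratios of 1.49 and 4.25 with the combination, -0.11 and 2.77 with VPA, -0.75 and -0.46 with CHIR99021, and 0.04 and -0.00 in control. Its normalised log2 Cy5 was 11.02 and 12.06 with the combination, 9.32 and 10.56 with VPA, 8.77 and 7.23 with CHIR99021, and 9.56 and 7.88 in control. Vim was the brightest of the list on every array, so the changes in the sum largely follow this 1 gene. Col1a2, detected in all 4 conditions, averaged 0.12 with the combination, 0.21 with VPA, 0.15 with CHIR99021 and 0.21 in control. In the same order Col3a1 averaged 0.02, 0.02, 0.10 and 0.07, and Thy1 0.16, 0.13, 0.10 and -0.00. Whether other cell types had a part in these ratios was not tested.

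Genes known for their roles in nerve cells numbered 12, with median log2 ratios of 0.46 for CHIR99021+VPA and 0.52 for VPA. Ndrg4, a gene of brain and heart, had 2.26 and 0.60 with the combination, 2.04 and 0.96 with VPA, 0.11 and 0.08 with CHIR99021, and 0.03 and -0.12 in control. A second Ndrg4 probe, detected on all 8 arrays, lay between -0.08 and 0.11 throughout, so the probes of this gene disagreed. Adarb1, which encodes the RNA editing enzyme of glutamate receptor transcripts, had 1.73 and 1.17 with the combination, 1.31 and 0.89 with VPA, -0.03 and 0.09 with CHIR99021, and -0.05 and 0.04 in control. A second Adarb1 probe, detected on all 8 arrays, averaged 0.64 with the combination, 0.60 with VPA, 0.16 with CHIR99021 and 0.00 in control. Ppm1e, a phosphatase of PAK and calmodulin-dependent kinases, had 1.21 and 1.35 with the combination, 0.84 and 0.91 with VPA, -0.01 and 0.37 with CHIR99021, and -0.05 and 0.24 in control. All 3 were higher on every array with VPA than on any without it.

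The remaining nerve cell genes were weaker. Lgi2, a secreted leucine-rich protein, had 1.31 and 0.52 with the combination and 0.92 and 0.53 with VPA. Tmod2, the tropomodulin of nerve cells, had 1.16 and 0.25 with the combination and 1.06 and 0.20 with VPA. A further Tmod2 probe, detected on all 8 arrays, averaged 0.97 with the combination, 0.89 with VPA, 0.08 with CHIR99021 and 0.05 in control. Rtn4r, the receptor for the axon growth inhibitor Nogo, averaged 0.40 ± 0.12 with the combination and 0.60 ± 0.04 with VPA (SD, n = 2 lines each). Slc30a3 (the zinc transporter of synaptic vesicles), Sema4f, Myo5a, Rgs9bp, Rab3il1 and Apbb1 averaged between 0.12 and 0.52 with the combination and between 0.18 and 0.44 with VPA. For Myo5a a second probe, detected on all 8 arrays, averaged 1.62 with the combination, 1.60 with VPA, 0.50 with CHIR99021 and 0.00 in control. None (0) of the 12 mature neuron markers on the list was a member, and Snap25 and Gap43 were not well above background on any array. On both control arrays 5 of the 12 were well above background, and on both VPA arrays also 5.

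Cilium and flagellum genes numbered 9. Differentiated small intestinal epithelium carries microvilli and no motile cilia, and several of these genes belong to the motile axoneme. Rsph1, a radial spoke protein, had 1.07 and 1.43 with the combination, 1.20 and 1.54 with VPA, -0.24 and 0.14 with CHIR99021, and 0.03 and 0.03 in control. Spag6l, of the central apparatus, had 0.90 and 0.91 with the combination, 0.64 and 0.90 with VPA, 0.01 and -0.01 with CHIR99021, and -0.07 and 0.19 in control. Cfap65 lay between 0.60 and 0.68 on the 4 arrays with VPA and at most at 0.07 without it. These 3 genes did not overlap between arrays with and without VPA. Kif7 and Bbs1, which serve primary cilia, averaged 0.54 and 0.42 with the combination and 0.41 and 0.14 with VPA. Zmynd12 was flagged by the rule, but its ratios of 0.04 and -0.01 with the combination and 0.12 and -0.02 with VPA overlapped those without VPA.

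By name, the share of members was set beside 0.491% for all genes with a symbol. A family of cilium and flagellum gene names held 5 members of 178 genes (2.81%), cadherins and protocadherins 2 of 64 (3.12%), and collagens 1 of 43 (2.33%). The 5 were Rsph1, Cfap65, Ccdc96, Ccdc88a and Ccdc148. By hand, Ccdc88a was placed with the intracellular signalling genes and Ccdc148 in no class, so that share is too high for cilium genes proper. Solute carriers held 3 of 356 (0.843%) and zinc finger proteins 1 of 418 (0.239%). Olfactory and vomeronasal receptors held 0 of 1024, G protein-coupled receptors 0 of 184, potassium channels 0 of 87 and keratins 0 of 86. With so few members in any family these shares are counts, not evidence of a theme.

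Intracellular signalling genes numbered 10. Rhpn1 had 1.16 and 1.48 with the combination, 1.13 and 1.26 with VPA, 0.10 and -0.03 with CHIR99021, and -0.11 and -0.03 in control. Its lower limits were 3.22-fold for the combination over CHIR99021 and 2.77-fold for VPA over control, and 3 members, Rhpn1 among them, exceeded a log2 ratio of 1 on all 4 arrays with VPA. Dgkh, the eta form of diacylglycerol kinase, had 0.69 and 0.73 with the combination and 1.07 and 1.14 with VPA. Gab3, an adaptor of receptor signalling, lay between 0.53 and 0.73 on the 4 arrays. Pik3cd, the catalytic delta subunit of PI3 kinase, lay between 0.36 and 0.88. Ripk2, the kinase of NOD receptor signalling, and Fer, a tyrosine kinase, had ratios that overlapped those without VPA, from -0.05 to 0.12 and from -0.03 to 0.15. Fer had Cy3 well above background on 2 arrays.

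Transcription, chromatin and RNA-binding genes numbered 9. Msx3, a homeobox gene of the dorsal neural tube in mouse, had 1.42 and 0.28 with the combination, 1.48 and 0.24 with VPA, 0.05 and -0.02 with CHIR99021, and 0.10 and -0.11 in control. Foxd1, a forkhead factor of kidney stroma, had 0.93 and 0.67 with the combination, 0.59 and 0.68 with VPA, 0.04 and 0.20 with CHIR99021, and 0.05 and 0.12 in control. Rbms1, a single-strand nucleic acid binding protein, had 0.49 and 1.03 with the combination and 0.17 and 0.39 with VPA, while 0.30 with CHIR99021 in line 1 lay among them. Another Rbms1 probe, detected on all 8 arrays, averaged 3.11 with the combination, 2.63 with VPA, 1.23 with CHIR99021 and 0.04 in control. Rbm11, Cecr2, Cux2, Cxxc4, Zfp516 and Taf4b completed the class.

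Smaller classes were of mixed kinds. Among 7 lipid, transport and metabolic genes, Abca5, a lipid transporter, had 0.67 and 0.66 with the combination and 0.35 and 0.60 with VPA, and Slc25a48, a mitochondrial carrier, had 0.65 and 0.51 with the combination and 0.56 and 0.23 with VPA. Slc4a8, a bicarbonate transporter, averaged 0.46 with the combination and 0.35 with VPA, while another of its probes, detected on all 8 arrays, averaged 2.91 and 2.46 in the same order. Macrod2, which removes ADP-ribose from proteins, averaged 0.23 with the combination and 0.28 with VPA, with 0.24 on a control array.

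Among 5 cytoskeleton and trafficking genes, Frmd5, a FERM domain protein, had 1.75 and 0.99 with the combination and 1.67 and 0.61 with VPA, against at most 0.18 without VPA. Tmod1, which caps the slow end of actin filaments, had 0.94 and 1.42 with the combination, 0.35 and 0.96 with VPA, -0.00 and 0.16 with CHIR99021, and 0.04 and 0.01 in control. Fbxl2, an F-box protein of ubiquitin ligases, lay between 0.55 and 1.00 on the 4 arrays with VPA.

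The 3 chemokine and prokineticin genes were Cxcl9, Prok2 and Cxcl5. Cxcl9, a T cell attractant induced by interferon-gamma, had 0.64 and 1.44 with the combination, 0.37 and 1.30 with VPA, -0.10 and 0.02 with CHIR99021, and 0.03 and 0.24 in control. Prok2 lay between 0.41 and 0.97 on the 4 arrays with VPA, and Cxcl5, a neutrophil attractant, between 0.23 and 0.36. Mest and Mkrn3 are imprinted genes expressed from the paternal copy. Mest had 1.14 and 0.57 with the combination and 0.41 and 0.34 with VPA, and Mkrn3 had 0.09 and 0.26 with the combination and 0.00 and 0.16 with VPA. Of the 19 genes not placed in a class, Tmem221 lay between 0.77 and 0.88 on the 4 arrays with VPA, Erich2 lay between 0.39 and 0.83, and Ccdc148 lay between -0.08 and 0.10.

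The edge of the rule was soft. Just inside it, Zmynd12 had a lowest net Cy5 brightness of 37.0 with VPA and a highest of 42.5 without it, and Cped1 had 35.0 and 38.5 in the same order. Just outside it, 103 genes missed the pattern on a single array, 20 of them through detection on the control array of line 1 and 13 on that of line 2. Of these, the 3 with the highest level were Nsg2, Esx1 and Il33. Nsg2 had 82.0 and 554 with the combination and 75.5 and 494 with VPA but also 44.0 in line 2 with CHIR99021, which was flagged as detected. Esx1 had 966 and 51.0 with the combination and 346 and 28.5 with VPA, the last of which was not flagged. Il33 had 44.0 in line 1 in control, against 443 and 39.0 with the combination.

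Base composition at the start sites was a feature that the rule did not use. RefSeq promoter sequences of assembly GRCm38.p6, from 250 bases before to 50 after the start, were found for 70 of the 92 genes, in 96 promoters. Those shown here contrast kinds of promoter. Adarb1 and Rtn4r are rich in CpG pairs and in the GC box GGGCGG. Fam81a is the gene compared most closely below. Cxcl9 is poor in CpG and holds the TATA box sequence TATAAA, though far upstream of the start. Adarb1 lies at chr10:77418224-77418523 on the minus strand, Rtn4r at chr16:18127392-18127691 on the plus strand, Fam81a at chr9:70141508-70141807 on the minus strand and Cxcl9 at chr5:92328030-92328329 on the minus strand. Capitals mark a GC box or TATA box sequence on either strand, wherever it lies (CCGCCC is the GC box read from the other strand). No position relative to the start was required.
Adarb1: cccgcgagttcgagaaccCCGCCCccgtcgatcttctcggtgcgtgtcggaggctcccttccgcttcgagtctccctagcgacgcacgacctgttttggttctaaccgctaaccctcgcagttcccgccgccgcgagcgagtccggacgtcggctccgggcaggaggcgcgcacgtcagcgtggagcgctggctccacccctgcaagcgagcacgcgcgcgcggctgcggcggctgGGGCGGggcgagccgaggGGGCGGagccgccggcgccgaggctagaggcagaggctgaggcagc
Rtn4r: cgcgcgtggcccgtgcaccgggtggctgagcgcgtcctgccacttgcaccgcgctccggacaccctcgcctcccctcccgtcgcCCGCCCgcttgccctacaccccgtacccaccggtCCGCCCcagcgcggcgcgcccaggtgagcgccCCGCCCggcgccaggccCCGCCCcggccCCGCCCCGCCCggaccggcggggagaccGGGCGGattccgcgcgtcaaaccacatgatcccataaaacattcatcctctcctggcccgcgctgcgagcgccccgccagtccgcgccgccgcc
Fam81a: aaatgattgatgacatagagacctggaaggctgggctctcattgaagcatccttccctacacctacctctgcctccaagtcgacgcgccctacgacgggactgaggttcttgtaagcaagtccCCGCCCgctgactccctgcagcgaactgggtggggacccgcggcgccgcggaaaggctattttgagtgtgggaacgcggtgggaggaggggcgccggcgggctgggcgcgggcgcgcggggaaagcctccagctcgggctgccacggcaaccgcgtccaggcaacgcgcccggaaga
Cxcl9: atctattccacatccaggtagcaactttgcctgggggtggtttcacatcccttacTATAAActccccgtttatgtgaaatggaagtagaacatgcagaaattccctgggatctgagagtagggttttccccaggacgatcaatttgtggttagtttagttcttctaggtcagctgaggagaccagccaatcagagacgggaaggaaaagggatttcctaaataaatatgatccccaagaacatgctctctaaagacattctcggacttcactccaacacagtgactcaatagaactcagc
Adarb1 holds 46 CpG pairs at 73.0% G+C with 3 GC boxes, Rtn4r 47 at 78.0% with 7, Fam81a 30 at 65.7% with 1, and Cxcl9 4 at 44.3% with 0 GC boxes and 1 TATA box.

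Over the 96 member promoters the median G+C content was 61.5%, against 58.0% for 18431 promoters of genes with a symbol on the array and 52.7% for all 32851 promoters in the table. Genes well above background on all 8 arrays, with 12799 promoters, had a median of 60.0%. More than 55% G+C together with a CpG observed over expected ratio above 0.6 was found in 55.2% of member promoters, 55.4% of promoters of genes detected on all 8 arrays, 45.2% of those on the array and 30.0% of all. The GC box, searched on both strands, was present in 60.4% of member promoters, 59.3% of those of genes detected on all 8 arrays, 50.8% of those on the array and 35.7% of all. The TATA box sequence, counted at any position, was present in 9.38%, 8.49%, 11.4% and 13.6% in the same order. In that order again, the CCAAT box was present in 36.5%, 37.9%, 37.6% and 37.4%, the E box CACGTG in 11.5%, 9.73%, 8.52% and 7.15%, and the AP-1 site TGACTCA in 4.17%, 3.95%, 4.51% and 5.2%. Several start sites of a gene are counted separately, and no test was made. The median CpG observed over expected ratio was 0.685 for members, 0.731 for genes detected on all 8 arrays, 0.632 for those on the array and 0.384 for all. In this ratio the members lay between the genes detected on all 8 arrays and those on the array. In G+C content and GC boxes they lay closer to the genes detected on all 8 arrays.

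**Figure D3:**
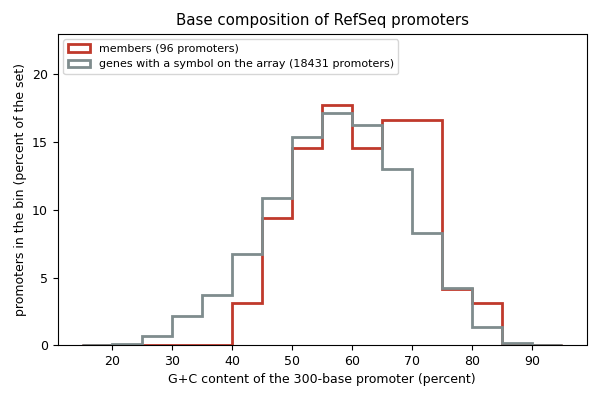
Share of promoters, in percent of the set, by G+C content in bins of 5 percentage points, for 96 promoters of members and 18431 promoters of genes with a symbol on the array. The member promoters have a median of 61.5% and the others 58.0%.

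The comparison tested is the combination with VPA alone. The rule asked for a detected spot on the arrays of both sides alike. It cut both sides at the detection limit but did not set the direction of their difference. Genes detected in VPA alone or in the combination alone could not enter. The comparison asks whether adding CHIR99021 altered genes detected only with VPA. Fam81a was the 1 member past the threshold and was lower with the combination, by a log2 difference of -0.89 (SE 0.13, adjusted p = 0.035, limma over 25621 probes), in both lines (-0.70 and -1.07). The background was 0.987% of probes called, 0.909% lower and 0.0781% higher, so 1 of 92 (higher: 0) is near it. The call was lost when any 1 control or CHIR99021 array was left out, with adjusted p of 0.115 and 0.083, and when either combination array or the VPA array of line 2 was left out (0.0794, 0.113 and 0.127). Without the combination array of line 2, Cyp4a10 was the 1 member called (adjusted p = 0.0435). It was also lost with the software's ratios (adjusted p = 0.12) and with Cy5 alone (adjusted p = 0.19).

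With the organoid line as a block, 2 members were called, both lower with the combination, against 3.3% of probes. They were Fam81a and Cyp4a10, each with an adjusted p of 0.0194 in limma. Without the block Cyp4a10 differed by -1.44 (SE 0.36, adjusted p = 0.149 in limma) and lay lower in both lines, by -1.72 and -1.16; without the combination array of line 1 the difference was -0.88. Its other 2 probes read -1.95 (SE 0.64) and -3.09 (SE 0.91), with adjusted p of 0.241 and 0.199 in the same limma fit. Tenm3 differed by -0.57 (SE 0.14, adjusted p = 0.147 in limma), but its probe that was detected on all 8 arrays differed by 0.02 (SE 0.10). Dgkh differed by -0.39 (SE 0.09, adjusted p = 0.118 in limma). Rtn4r was the next lowest, at -0.20 (SE 0.11).

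The members with the largest positive differences were Tmod1 at 0.53 (SE 0.23), Rbms1 at 0.48 (SE 0.21), Mest at 0.48 (SE 0.18), Adamts7 at 0.44 (SE 0.38) and Ppp4r4 at 0.42 (SE 0.14). None (0) of these 5 passed, with adjusted p between 0.263 and 0.697 in limma. Single arrays carried several of these: Tmod1 read 0.22 without the VPA array of line 1, Rbms1 0.21 without the combination array of line 2, Mest 0.20 without that of line 1, and Adamts7 -0.07 without that of line 2. The second Rbms1 and Ppp4r4 probes read 0.49 (SE 0.09) and 0.45 (SE 0.20), with adjusted p of 0.0675 and 0.397 in limma. At an unadjusted p under 0.05, 11 of 92 members differed, against 3570 of 25621 probes (13.9%).

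The combination lay above VPA for 59 of 92 members (64.1%), against 52.4% of probes. The median difference was 0.06 for the members and 0.01 for all probes. Taken by line, the members' median was 0.10 in line 1 and 0.01 in line 2. The combination was higher in both lines for 38 members (41.3%), against 35.0% of probes. It was lower in both lines for 18 (19.6%), against 31.6%. The interaction of the compounds is not read for the members, because their values with CHIR99021 and in control are only bounds.

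**Figure D4:**
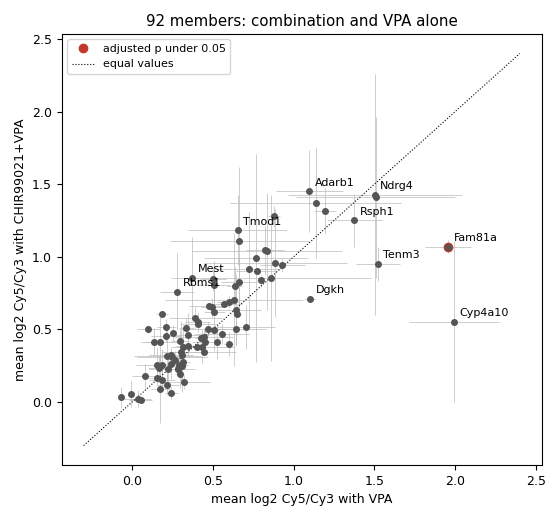
Mean log2 Cy5/Cy3 of each member with CHIR99021+VPA (vertical axis) against VPA alone (horizontal axis), with bars from the lower to the higher line and a dotted line of equal values. Fam81a (red) and Cyp4a10 fall well below the dotted line; 59 of the 92 members lie above it.

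The 2 organoid lines differed for some of the brightest members. Over the arrays with VPA, 4 members (4.35%) differed between lines by more than 1 on the log2 scale, against 2.13% of probes, and all 4 were higher in line 1, against 1.29% of probes. Ndrg4 averaged 0.78 in line 2 and 2.15 in line 1, Msx3 0.26 and 1.45, Megf6 0.94 and 1.98, and Igfbp5 0.36 and 1.40 in the same order. Adamts7 was the opposite case, with 1.36 in line 2 and 0.41 in line 1. The order of the lines was the same with the combination as with VPA for all 5 of these genes. The median size of the difference was 0.15 for the members and 0.16 for all probes. Each line was hybridised on its own slide, so line and slide cannot be told apart, and with 1 array per line and condition the difference was not tested.

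**Figure D5:**
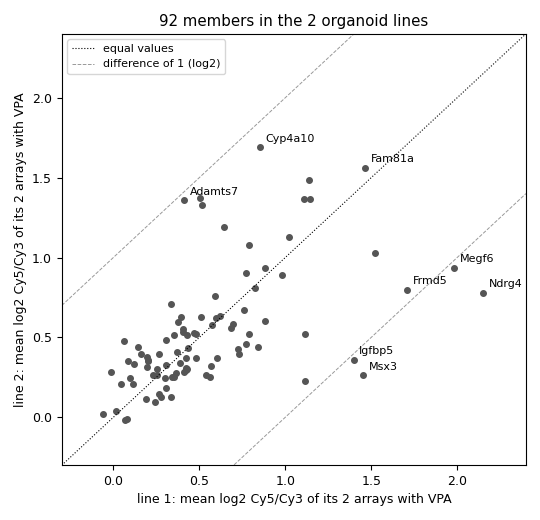
Mean log2 Cy5/Cy3 over the 2 arrays with VPA of line 2 (vertical axis) against those of line 1 (horizontal axis) for the 92 members; the dotted line marks equal values and the dashed lines a difference of 1. Ndrg4, Msx3, Megf6 and Igfbp5 lie beyond the lower dashed line.

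The Cy3 channel gave a reading of control RNA that the rule did not use. For 84 of the 92 members (91.3%) the Cy3 spot was not well above background on all 8 arrays, for 6 it was above background on 1 array and for 2, Megf6 and Fer, on 2 arrays. Among spots with a symbol whose Cy5 was not above background on both control arrays, 5192 of 5632 (92.2%) were likewise blank in Cy3 on all 8. The Cy3 dye detected fewer spots than Cy5 on every array, so a blank Cy3 spot is a weaker statement than a blank Cy5 spot.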

How the data were processed

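RNA from organoids of 2 lines in 4 conditions was hybridised to 8 Agilent two-colour arrays, per the labels. The scanner software was Agilent's Feature Extraction, version 10.5.1.1 in the file headers. The deposited intensity values are the median brightness of each spot and of its local background, on a linear scale; the deposited log10 ratio per spot is the software's background-subtracted, dye-normalised Cy5 over Cy3; and flags of 0 or 1 mark detection, saturation and outliers, per the file headers. The authors' deposited table of log2 values held the software's ratio turned to log2 and was not used further; its column medians lay between -0.028 and 0.036, and its scale, centring and direction were settled by that match.

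Background was corrected here with normexp (offset 50, fitted without outlier spots) and ratios were normalised by loess within arrays (limma 3.58.1, R 4.3.3), with control and outlier spots at weight 0. Of 41174 distinct probes, 27479 matched a RefSeq symbol (GRCm38.p6, names and promoters only). Spots of a probe were averaged. The 25621 probes whose Cy5 was detected in both lines of any condition were fitted over the 4 conditions (lmFit, eBayes, Benjamini-Hochberg, threshold 0.05); 100 were dropped because an outlier mark left no value. The fit was tested on simulated data. For members, any outlier flag in either dye excluded a spot; a probe of several spots qualified if any spot did. Lower limits of folds used loess and Aquantile, with the lowest detected signal of each array as the floor. Samples are paired by organoid line, which the labels give as the replicate; deviations of a line correlated at r of 0.13 to 0.74 across probes between conditions. Alternatives were other background settings, ratios, filters, designs and arrays left out. The precision is limited by 2 arrays per condition.

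Members, gene lists, classes and alternatives were chosen with earlier results of these data known, and the functional classes were assigned by hand after the members were known. Genes named are members (leaving out clone names and predicted loci): the 12 with the highest level over the arrays with VPA, the 3 lowest, the 3 highest of each class or name family, the 5 largest differences each way between the combination and VPA, the 5 largest between lines, and those on marker lists. Others named were chosen after their values were seen. Lists not printed above held 0 members: muscle, endothelium, immune cell, germ cell, liver and squamous epithelium markers. Well above background on both control arrays were 7 of 10 muscle, 2 of 6 endothelium and 3 of 7 immune cell markers. The same held for 2 of 7 germ cell, 3 of 5 liver and 5 of 7 squamous epithelium markers. Tables and plots used Python 3.11.15, pandas 2.3.3 and matplotlib 3.10.9.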

Additional observations from a re-analysis of the deposited data

How the results depend on the processing

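The 92 members became 195 genes when 1 array could break the pattern and 50 when every probe of the gene had to show it; the other 5 readings of the rule gave 84 to 118, and leaving out 1 array gave 100 to 113. All 92 were kept where an array was left out or could break the pattern. The readings of outlier flags on background regions (106) and of probes with several spots (90) were chosen after seeing the data. The median log2 ratio was 0.84 with CHIR99021+VPA and 0.74 with VPA at an offset of 16, and 2.38 and 2.41 with the software's ratios; with median centring it was 0.47 for CHIR99021+VPA. Leaving out 1 array gave 0.47 to 0.51 for CHIR99021+VPA and 0.37 to 0.43 for VPA. The count of members called between the combination and VPA, 1 in the main result, was 2 with the line as a replicate block, 0 with the software's ratios, normexp fitted on all spots, only the arrays with VPA, trend and robust eBayes, or Cy5 alone, and 0 to 1 with 1 array left out; over all 25621 probes the count was 846 with the block and 253 without it, and 6 with Cy5 alone. Among the members the block changed no call other than that of Cyp4a10. The median difference stayed above 0 (0.03 to 0.08) under all alternatives run. Of 186 values for the 10 members named for that contrast, 171 kept direction and side of the threshold, 12 lost the call (Fam81a), 2 gained it (Cyp4a10) and 1 reversed (Adamts7, -0.071 to 0.957 with 1 array left out, the low end without line 2 of the combination). Only Fam81a passed the threshold in the main fit, so for the other members a kept side means no call in either fit. Leaving out a control or CHIR99021 array cannot alter the difference itself. The cause of the changes between settings was not tested. Spots near the detection limit and 2 lines limit all of these values.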
